A study of Xenopus laevis with 74 samples.

Results

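The Eph receptors and their ephrin ligands were followed as explants of pluripotent *Xenopus laevis* cells were directed toward 4 lineages. Members were all genes whose symbol in the count table or in the TPM table (TPM, a transcript level scaled to gene length and to the library) is eph or efn followed by a or b and a digit, with the L and S copies of the allotetraploid genome (homeologs) kept apart. The choice used gene names and no measured value. It gave 38 symbols of 21 genes, of the 46013 symbols in the TPM table: 15 EphA, 8 EphB, 10 ephrin-A and 5 ephrin-B. Of these, 36 are among the 45656 genes of the count table. Testing required 15 counts in at least 1 library, which 32 of the 36 reached, beside 27424 of all genes there. RNA came from animal caps, the explanted animal pole of the late blastula, each library pooling several explants. Caps were left untreated (epidermal lineage), or received 100 ng/uL Noggin, an antagonist of bone morphogenetic proteins (neural), 20 ng/uL BMP4/7 (ventral mesoderm) or 160 ng/uL Activin, which acts as Nodal ligands do (endoderm). The doses are those of the sample labels, and the methods of the study state other units for them. By those methods Noggin was given in a medium low in calcium and magnesium, and Activin and BMP4/7 in Marc's Modified Ringer's solution. Noggin and its medium cannot be told apart. The study took stage 9 as time zero, began Activin and BMP4/7 treatment at that stage, and ran the lineages as independent experiments. Whether differences between lineages at stage 9 come from the treatment or from separate experiments was not tested. Each lineage was sampled at 6 Nieuwkoop-Faber stages (9, 10, 10.5, 11, 12, 13), from late blastula through gastrulation to the neural plate, with 3 libraries per group and 5 for ventral mesoderm at stage 11, or 74 libraries in all. Labels do not say which libraries share a frog, so p-values measure the spread between these libraries. Ventral mesoderm was sequenced on another instrument than the other lineages, and the instrument and this lineage cannot be told apart.

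Eph receptors are receptor tyrosine kinases that bind ephrins on the surface of a neighboring cell. Ephrin-A ligands are held in the membrane by a lipid anchor, while ephrin-B ligands span it and signal into their own cell as well. EphA receptors bind mainly ephrin-A and EphB receptors mainly ephrin-B, with EphA4 binding ligands of both classes. Contact usually ends in repulsion, and in the *Xenopus* gastrula ephrin-B ligands and Eph receptors keep ectoderm and mesoderm apart along the cleft between them. Since whole explants were sequenced, fewer cells that express a gene and less RNA per cell cannot be told apart.

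The count table holds 11938338 to 23215739 counts for each library. At stage 13 the marker lists followed the lineage labels, with exceptions. The summed level of 7 epidermal markers was 4450 to 7915 TPM in untreated explants, 315 to 860.7 TPM in neural and 569.9 to 685 TPM in endoderm explants. In ventral mesoderm explants it was 1732 to 3979 TPM. Ventral mesoderm markers in turn summed to 1284 to 1621 TPM in untreated explants, against 2014 to 3963 TPM in ventral mesoderm. Of these *szl* alone was at 1290 ± 227.5 TPM in untreated explants and 1183 ± 84.1 TPM in ventral mesoderm, while *tbxt* was at 7 ± 7.05 against 664.3 ± 309.4 TPM and *cdx4* at 24.6 ± 9.69 against 876.9 ± 442.1 TPM. Activin explants held 4607 to 5568 TPM of endoderm markers, together with 874.8 to 1032 TPM of neural markers and 239.2 to 1088 TPM of 5 organizer markers, which summed to 19.6 to 102.1 TPM in untreated explants. The untreated sum was nearly all *not*, at 69.4 ± 44.9 TPM against 17.1 ± 8.06 TPM with Activin. Endoderm markers summed to 111 to 473.9 TPM in Noggin and 102.8 to 686.1 TPM in ventral mesoderm explants, against 43.8 to 77.7 TPM in untreated ones. In Noggin explants *a2m* alone was at 292.8 ± 166.8 TPM. Ventral mesoderm markers summed to 477.5 to 895.3 TPM in Activin explants. The part of other cell types in the results for any lineage was not tested.

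Several libraries and names need to be known beforehand. Neural replicate 1 at stage 13 carried neural markers but differed from replicates 2 and 3 in many members, with 5.14 TPM of *epha2.L* against 65.7 and 46.2 TPM and 28.2 TPM of *efnb3* against 4.35 and 5.27 TPM. Its *dlx3*, an epidermal gene, was at 67.7 TPM against 10.5 and 19.9 TPM. Ventral mesoderm replicate 1 at stage 13 also stood apart, with 7.34 TPM of *epha4.S* against 43.9 and 58.2 TPM. Both libraries stand apart partly in the members themselves. Smaller p-values of members in fits without these libraries are therefore no separate support. The L and S names of *efna1* and *ephb4* are crossed between the tables: *efna1.L* counts correlated across libraries with TPM entry *efna1.S* at r = 0.993 but with entry *efna1.L* at 0.675, where the libraries share depth and stage. Names of the count table are used for both genes here, with the TPM entry that matched. Which table carries the right letter was not tested. There is no count row for *epha4.S*, and counts of *epha4.L* followed the sum of both TPM entries (r = 0.997) more closely than *epha4.L* alone (r = 0.967), so tests of *epha4.L* may cover both copies. TPM columns 2 to 5 of ventral mesoderm at stage 11 matched count columns of other numbers. The best match of TPM column 4 reached r = 0.363, and whether this column belongs to the group is not settled. Mean TPM of ventral mesoderm at stage 11 includes it, whereas tests used counts.

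In terms of level, the family was already present in the blastula and became largest in Activin explants. All members together made up 263 ± 20.2 TPM (SD, n = 3) in untreated explants at stage 9 and 563.4 ± 25.2 TPM at stage 13. In Activin explants they went from 217.9 ± 12.9 TPM at stage 9 to 1686 ± 79.6 TPM at stage 11 and stood at 1245 ± 46.8 TPM at stage 13. Noggin explants held 558.9 ± 117.5 TPM and ventral mesoderm explants 460.3 ± 44 TPM at stage 13. Sums of TPM are given as descriptions, with no test.

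**Figure D1:**
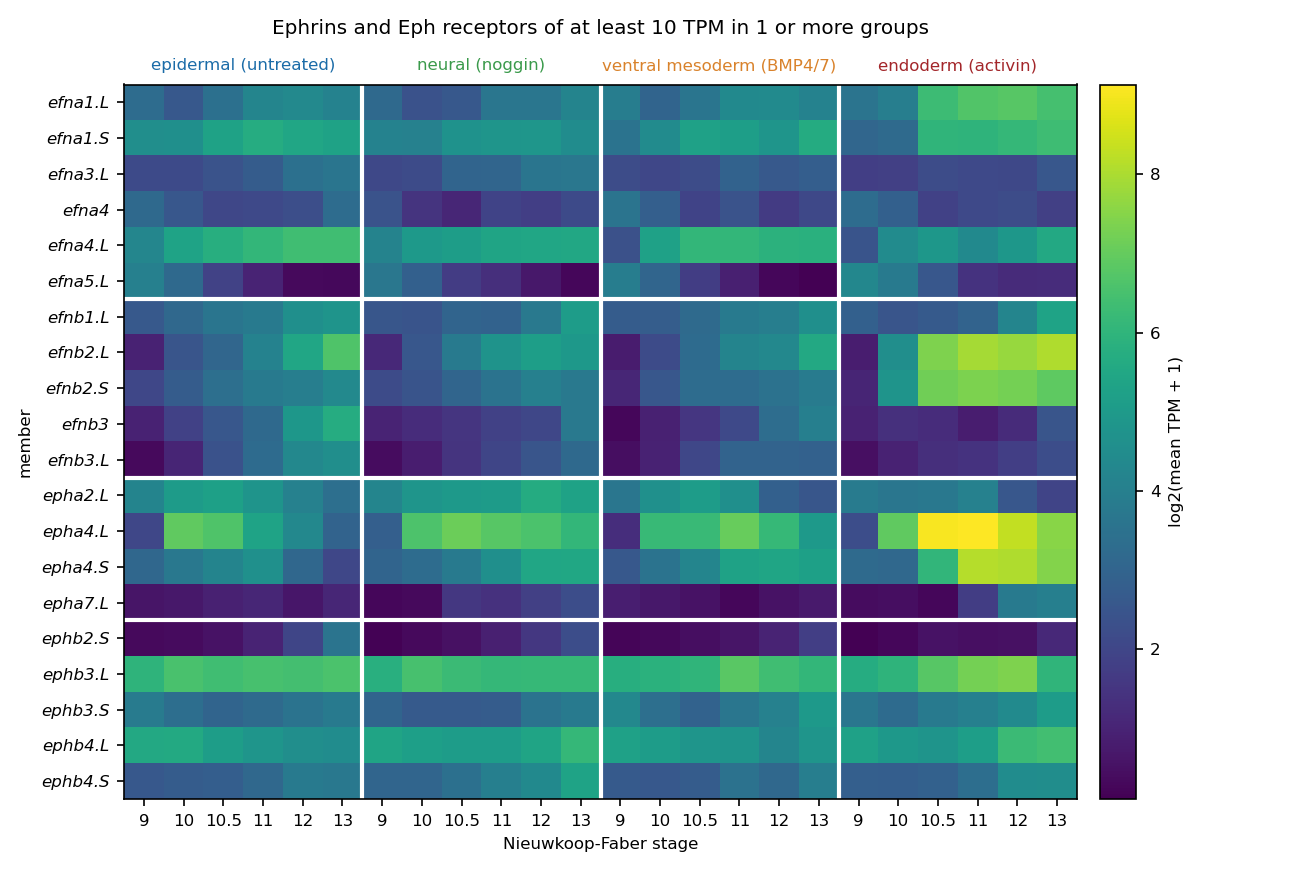
Levels of the 20 members that reach 10 TPM in at least 1 group, as the color of log2(mean TPM + 1), for each lineage (blocks) and stage (columns). Activin explants hold the brightest cells, *epha4.L* at stages 10.5 to 12, *epha4.S* at stages 11 and 12, and *efnb2.L* from stage 11 onward.

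Each class had its own course. The ephrin-B sum was low in every lineage at stage 9, between 8.14 and 10.8 TPM on average, and at stage 13 stood 21-fold higher in untreated, 8.9-fold higher in neural, 12.9-fold higher in ventral mesoderm and 44.6-fold higher in endoderm explants. The EphA sum of untreated explants peaked at 172.5 ± 26.9 TPM at stage 10 and was at 23.4 ± 7.65 TPM by stage 13. In Noggin explants it was still 157.9 ± 77.8 TPM at stage 13. At stage 11 it was 865 ± 95.8 TPM in Activin and 95.7 ± 21.4 TPM in untreated explants, and 378.8 ± 64 TPM in Activin explants at stage 13. EphB receptors were the largest class at stage 9, at 113.8 to 132.9 TPM, with ratios of stage 13 to stage 9 between 1.18 in untreated and 1.81 in endoderm explants. The untreated ratio, 0.235 on the log2 scale, was -0.202 without its highest member and 1.168 with TMM-normalized counts. The neural ratio, 0.801 on the log2 scale, was 1.162 with all TPM entries of a symbol summed. Ephrin-A sums went from 84.5 ± 15.7 to 164.1 ± 20.8 TPM in untreated and from 63.3 ± 0.28 to 231.7 ± 15.8 TPM in Activin explants.

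**Figure D2:**
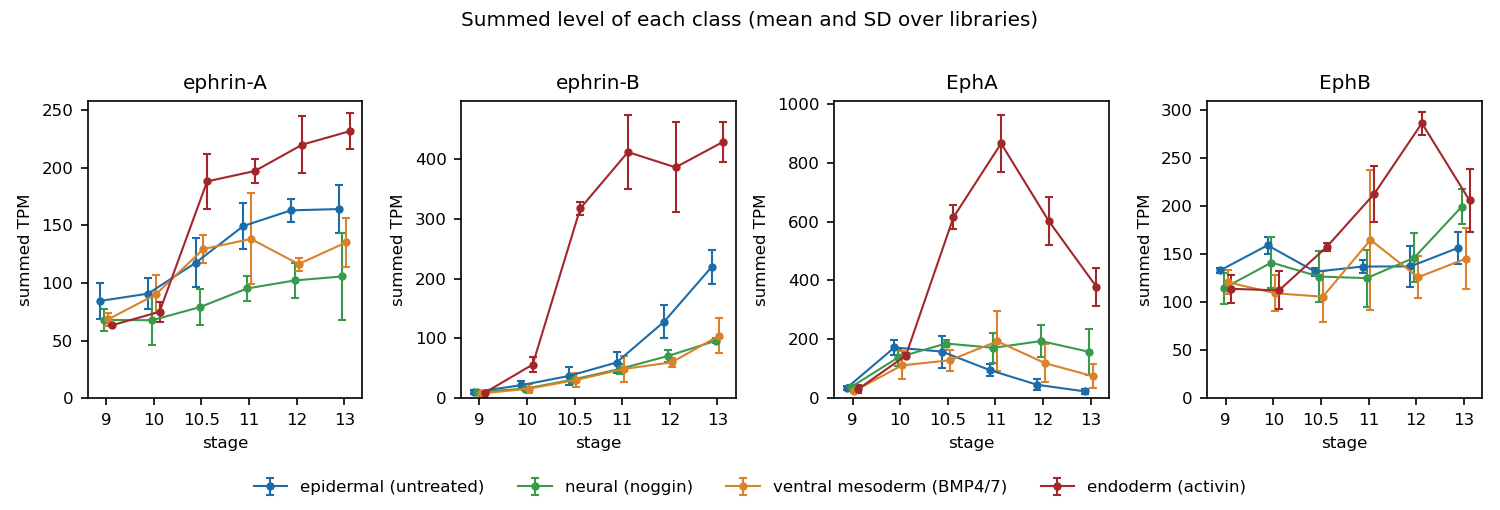
Summed TPM of ephrin-A, ephrin-B, EphA and EphB members (panels, with their own y axes) against stage, as mean and SD over 3 libraries (5 for ventral mesoderm at stage 11). Ephrin-B sums are higher at stage 13 than at stage 9 in all 4 lineages. The EphA sum is 95.7 TPM in untreated and 865 TPM in Activin explants at stage 11, and 23.4 and 378.8 TPM at stage 13.

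Most members changed between stage 9 and stage 13, and more rose than fell. By edgeR's quasi-likelihood test with Benjamini-Hochberg adjustment over 27424 genes and a threshold of 0.05, 19 of 32 members changed in untreated explants (15 higher, 4 lower), beside 54.7% of all genes tested (27.8% higher, 26.9% lower). In neural explants 19 changed (15 higher, 4 lower), beside 40.1% of all genes (21.7% higher, 18.3% lower). In ventral mesoderm 21 changed (15 higher, 6 lower), beside 54.6% (28.4% higher, 26.3% lower). In endoderm 25 changed (18 higher, 7 lower), beside 61.4% (32.5% higher, 28.9% lower). As a share of the 32 members these are 59.4, 59.4, 65.6 and 78.1%, so that the share of untreated explants lies near that of all genes. The median log2 fold change over the members was 1.5, 1.62, 1.29 and 2.24 in the same order of lineages, where that of all genes was 0, 0.21, 0.07 and 0.15. Scaling by library totals in place of TMM factors moved the median of all genes to -0.49, -0.09, -0.46 and -0.26, and with it the share of higher genes among all calls of untreated explants from 50.8 to 36%. No called member turned its direction with this scaling, and the ventral mesoderm split became 11 higher and 8 lower. With the replicate number as a block the counts were 20, 20, 18 and 25, beside 55, 40.4, 51.9 and 65.4% of all genes. Then *efna1.L*, *epha5.S* and *epha6* no longer passed in ventral mesoderm. TPM and the counts tested are scaled in different ways, and a level in TPM can fall where the fold change on counts does not. The cause was not tested.

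The calls in steps from one stage to the next depended on the replicate number. Over the 5 steps, without it, 4 of the 160 member tests passed in untreated explants (0.409% of all gene tests), 4 in neural (0.982%), 4 in ventral mesoderm (1.15%) and 28 in endoderm explants (8.39%). Same-numbered libraries moved together over the stages of a lineage. With the replicate number as a block the counts were 67, 37, 40 and 62, beside 30.1, 16.4, 22.1 and 33.3% of all gene tests. Leaving out 1 library at a time, without the block, gave 1 to 7 calls in untreated, 1 to 4 in neural, 2 to 6 in ventral mesoderm and 20 to 29 in endoderm explants. In all 4 lineages *epha4.L* rose from stage 9 to 10. In untreated explants no gene of the 27424 tested, and so no member, passed in a later step by edgeR without the block. In each of these steps 6 to 11 members had an unadjusted p under 0.05 and DESeq2 called 2 to 6.

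Compared with untreated explants of the same stage, Activin explants differed most. Over stages 9 to 13, 58 of 192 member tests passed in endoderm (22 different members), 9 in neural and 3 in ventral mesoderm explants, where 13.3, 3.45 and 0.456% of all gene tests did. The endoderm counts were larger at later stages, with 4 members at stage 10 (4.67% of all genes), 7 at stage 10.5 (8.01%), 9 at stage 11 (10.7%), 18 at stage 12 (22.6%) and 20 at stage 13 (33.7%). Of these 20, 12 were higher and 8 lower than in untreated explants (17.9 and 15.8% of all genes). At stage 9 no member passed against untreated explants by edgeR in any lineage, where 0.00365, 0 and 0.0146% of all genes did in neural, ventral mesoderm and endoderm explants. In the same order 1, 5 and 6 members had an unadjusted p under 0.05, and DESeq2 called 0, 1 and 4. Leaving out 1 library at a time gave 7 to 16 neural, 0 to 7 ventral mesoderm and 54 to 59 endoderm calls over the 6 stages. All comparisons with untreated explants of a stage share the same control libraries.

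**Figure D3:**
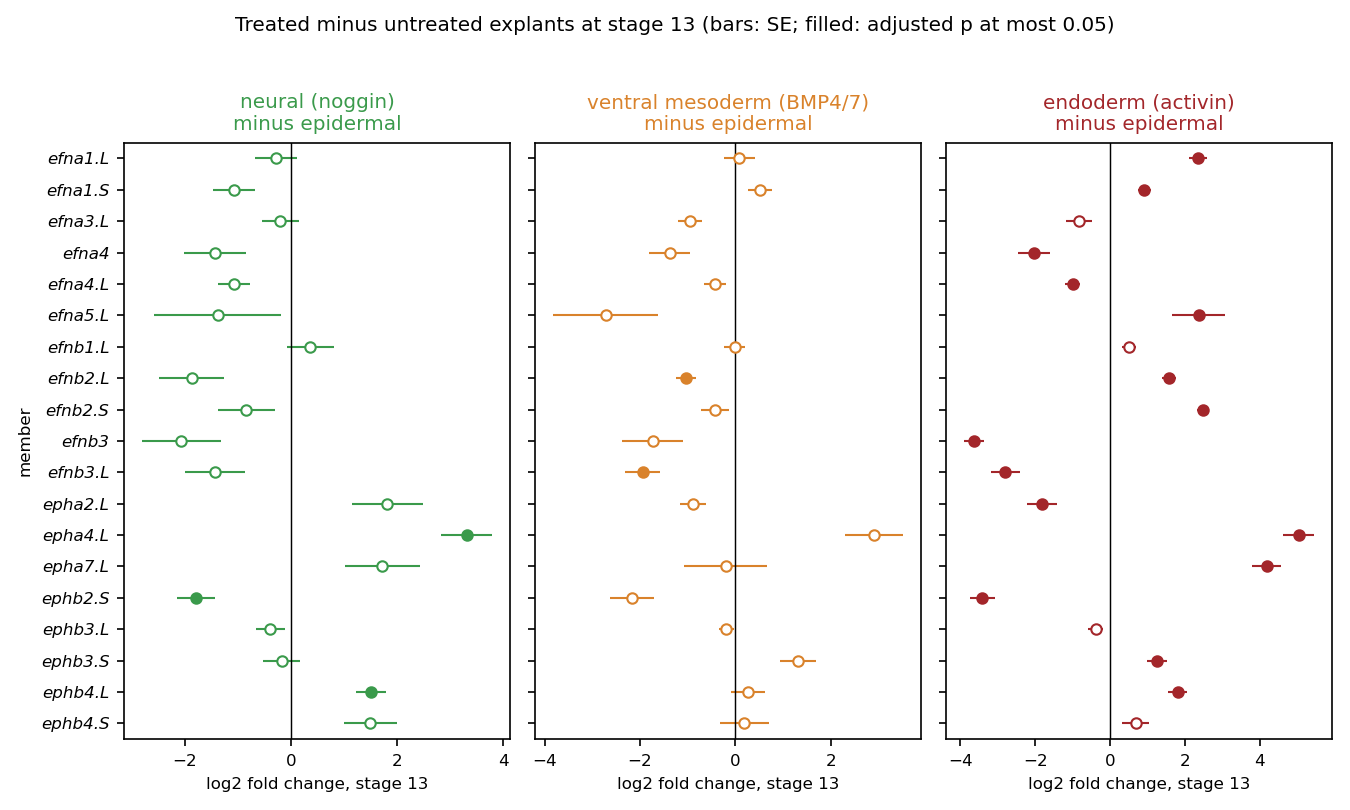
Log2 fold change of treated minus untreated explants at stage 13 for the 19 members described in full (rows), one panel per treatment, with SE as bars and filled points where the adjusted p is at most 0.05. In Activin explants *epha4.L* lies at 5.04 and *efnb3* at -3.64, and fewer points are filled in the other panels.

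Among the ephrin-B ligands, both *efnb2* copies were higher in Activin than in untreated explants. Ephrin-B2 is best known from mouse as the ligand on arteries that meets EphB4 on veins. In Activin explants *efnb2.L* was at 0.91, 0.70 and 0.76 TPM at stage 9, at 23.4, 31.2 and 13.6 TPM at stage 10 and at 179.6, 166.7 and 153.2 TPM at stage 10.5. It then stood at 209.6, 237.4 and 271.5 TPM at stage 11 and at 244.8, 290.7 and 252.8 TPM at stage 13. Every Activin library from stage 10 onward lay above every untreated library of its stage. The log2 fold change from stage 9 to 13 was 8.99 (SE 0.29, adjusted p = 3.7e-07, edgeR), and the difference from untreated explants was already 2.59 (SE 0.35, adjusted p = 0.0075) at stage 10 and 4.61 (SE 0.22, adjusted p = 8.5e-06) at stage 10.5.

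Its homeolog *efnb2.S* took the same early course in Activin explants, from 1.08 ± 0.70 TPM at stage 9 to 142.6 ± 4.97 TPM at stage 10.5 and 118.1 ± 10.4 TPM at stage 13 (log2 fold change 7.52, SE 0.45, adjusted p = 6.3e-06). It exceeded untreated explants by 3.74 on the log2 scale at stage 10.5 (SE 0.20, adjusted p = 1.5e-05) and by 2.48 at stage 13 (SE 0.17, adjusted p = 1.5e-05).

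Untreated explants reached high *efnb2.L* later. It was at 0.85, 0.87 and 1.09 TPM at stage 9, at 15.2, 15.2 and 18.8 TPM at stage 11, and at 111.9, 87.1 and 99.7 TPM at stage 13 (log2 fold change 7.46, SE 0.29, adjusted p = 8.9e-06). Activin exceeded untreated explants by 4.10 on the log2 scale at stage 11 (SE 0.17, adjusted p = 1.7e-06) and by 1.58 at stage 13 (SE 0.18, adjusted p = 0.00029), and whether these stages differ was not tested. Ventral mesoderm explants held 57.9, 41.2 and 40 TPM at stage 13, below all untreated libraries (log2 fold change -1.03, SE 0.21, adjusted p = 0.049), a call that passed in 1 of the 6 fits with a library left out. Noggin explants held 38.5 and 45.8 TPM in replicates 2 and 3 and 4.4 TPM in replicate 1. The neural difference from untreated explants did not pass with all libraries (-1.87, SE 0.61, adjusted p = 0.11) and did without that replicate (-1.39, SE 0.23, adjusted p = 0.0063).

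The change of *efnb2.S* from stage 9 to 13 was 4.16 higher on the log2 scale in Activin than in untreated explants (SE 0.55, adjusted p = 0.00038, test of the difference of changes), and that of *efnb2.L* 1.54 higher (SE 0.38, adjusted p = 0.015). The latter did not pass with 1 fit of all libraries (adjusted p = 0.11). At stage 9 *efnb2.S* was at 3.13 TPM on average in untreated and 1.08 TPM in Activin explants, with no call by edgeR. Its difference of changes includes this difference at the start.

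**Figure D4:**
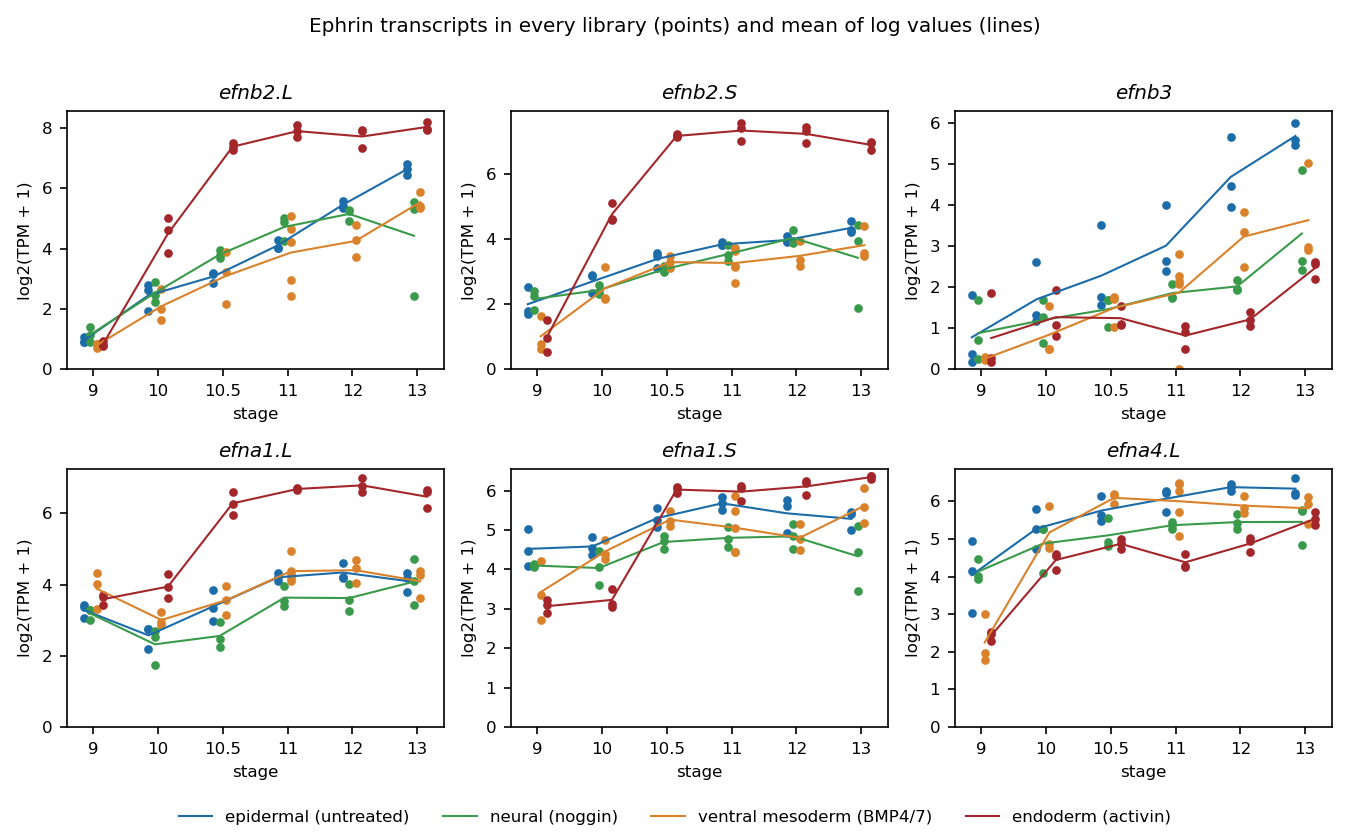
Levels of 6 ephrin transcripts as log2(TPM + 1) in every library (points) against stage, with the mean of log values as lines colored by lineage. At stage 13 *efnb2.L*, *efnb2.S*, *efna1.L* and *efna1.S* lie highest in Activin explants and *efnb3* in untreated explants.

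The remaining ephrin-B genes differed from *efnb2*. Both *efnb3* entries had their highest mean at stage 13 in untreated explants: *efnb3* was at 2.49, 0.29 and 0.12 TPM at stage 9 and at 62.9, 43.5 and 47.7 TPM at stage 13 (log2 fold change 6.64, SE 1.07, adjusted p = 0.0016). At stage 13 Activin explants held 4.93, 5.14 and 3.63 TPM, 3.64 lower on the log2 scale (SE 0.27, adjusted p = 2.3e-05), with no overlap of the groups. At stage 12 Noggin explants held 2.88, 2.83 and 3.5 TPM against 49.5, 14.5 and 21.2 TPM in untreated explants (-3.45, SE 0.51, adjusted p = 0.0039). At stage 13 the neural difference did not pass (-2.06, SE 0.75, adjusted p = 0.15) with replicate 1, which held 28.2 TPM, and without it was -3.75 (SE 0.31, adjusted p = 0.00052). Ventral mesoderm showed the same single high library, 31.6 TPM against 6.52 and 6.88 TPM, and its difference of -1.74 (SE 0.64, adjusted p = 0.2) became -2.92 (SE 0.29, adjusted p = 0.0011) without it.

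For *efnb3.L* the levels of untreated explants were 0.31, 0.19 and 0.32 TPM at stage 9 and 35.2, 16.3 and 17.2 TPM at stage 13 (log2 fold change 8.88, SE 0.78, adjusted p = 6.5e-05). It was lower than in untreated explants at stage 13 in Activin (-2.80, SE 0.39, adjusted p = 0.00078) and in ventral mesoderm explants (-1.94, SE 0.36, adjusted p = 0.039, passing in 2 of 6 fits with a library left out). Noggin explants differed at stage 12, at 4.62 ± 1.86 against 18.8 ± 8 TPM (-2.24, SE 0.44, adjusted p = 0.011).

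*efnb1.L*, whose protein steers cell movement of eye field cells in *Xenopus*, rose in all 4 lineages from stage 9 to 13 by 3.08 to 3.65 on the log2 scale. Levels at stage 13 were 23.5, 32.4 and 22.8 TPM in untreated and 38.1, 38.6 and 41.2 TPM in Activin explants. These do not overlap, but the difference of 0.51 (SE 0.20, adjusted p = 0.081) did not pass. In Activin explants *efnb1.L* went from 6.98 ± 0.88 TPM at stage 11 to 17.5 ± 3.36 TPM at stage 12 (log2 fold change 1.63, adjusted p = 0.0056) and 39.3 ± 1.64 TPM at stage 13 (1.21, adjusted p = 0.005).

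Among the ephrin-A ligands, both *efna1* copies were higher in Activin than in untreated explants at stage 13. Ephrin-A1 is the main partner of EphA2 in mammals. *efna1.L* was at 11.3, 14.1 and 18.5 TPM in Activin explants at stage 10 and at 76.4, 61 and 96.6 TPM at stage 10.5, a rise of 2.58 on the log2 scale in a single step (adjusted p = 0.00056). In untreated explants at stage 10.5 it was at 9.2, 6.9 and 13.3 TPM, below all Activin libraries (log2 fold change 2.98, SE 0.28, adjusted p = 0.00048). At stage 13 the groups did not overlap either, at 70.2, 99.1 and 95.9 against 12.8, 19.1 and 17.1 TPM (2.34, SE 0.24, adjusted p = 0.00015).

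For *efna1.S* the order of Activin and untreated explants turned over. At stage 9, when treatment began, its mean was lower in Activin explants, at 7.41 against 22.8 TPM, with no call by edgeR. At stage 10 Activin explants held 7.28, 7.71 and 10.4 TPM and untreated explants 27.2, 22.4 and 19.8 TPM (log2 fold change -1.53, SE 0.27, adjusted p = 0.02), a call lost without replicate 1 or 2 of Activin. By stage 10.5 Activin explants had risen to 64.3, 60.5 and 67.6 TPM (3.02 above stage 10, adjusted p = 0.00019). At stage 13 they held 80.9, 81.2 and 77.7 TPM against 30.9, 41.2 and 42.8 TPM in untreated explants (0.92, SE 0.19, adjusted p = 0.0054). Over stages 9 to 13 the changes of *efna1.L* and *efna1.S* in Activin explants exceeded those in untreated explants by 2.05 (SE 0.34, adjusted p = 0.0014) and 2.59 (SE 0.34, adjusted p = 0.00031).

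*efna4.L* had the highest mean TPM of the ephrin-A members at stage 13 in untreated, neural and ventral mesoderm explants. In untreated explants it rose from 29.6, 7.21 and 16.6 TPM at stage 9 to 74.1, 97.1 and 70.8 TPM at stage 13 (log2 fold change 2.94, SE 0.50, adjusted p = 0.0016). It rose in the other lineages as well, by 1.96 in neural (SE 0.30, adjusted p = 0.0023), 4.63 in ventral mesoderm (SE 0.46, adjusted p = 8.8e-05) and 4.04 in endoderm explants (SE 0.20, adjusted p = 1.8e-06). Activin explants were lower than untreated ones at stages 10.5 (a call lost without any 1 of the Activin libraries) to 13, by 1.81 on the log2 scale at stage 11 (20 ± 2.96 against 67.2 ± 13.4 TPM, SE 0.22, adjusted p = 0.0007). At stage 9, when treatment began, the Activin mean was lower as well, at 4.41 against 17.8 TPM, with no call by edgeR. Noggin explants were lower at stage 12, at 37.4, 49.3 and 42.2 against 87.8, 82.7 and 76.4 TPM (-1.08, SE 0.21, adjusted p = 0.0086).

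The entry *efna4*, with no L or S, is counted apart from *efna4.L*. Untreated explants held 5.57, 7.99 and 11 TPM at stage 9 and 13.6, 8.01 and 5.04 TPM at stage 13, with no call. Activin explants went from 6.21, 9.32 and 10.7 TPM to 2.58, 1.83 and 3.17 TPM (log2 fold change -1.02, SE 0.34, adjusted p = 0.028, passing in 2 of 6 fits with a library left out), and at stage 13 lay 2.04 below untreated explants (SE 0.44, adjusted p = 0.0071). *efna3.L* rose in all 4 lineages, by 1.39 to 2.43 on the log2 scale, and reached 11.4 ± 3.51 TPM in untreated and 4.87 ± 1.26 TPM in Activin explants at stage 13.

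*efna5*, known for repelling retinal axons in mouse and chick, fell in expression. *efna5.L* was at 18.7, 14.9 and 12.5 TPM in untreated explants at stage 9 and at 0.36, 0.27 and 0.10 TPM at stage 13 (log2 fold change -4.72, SE 0.67, adjusted p = 0.00053). Both *efna5* copies fell in every lineage. In Activin explants *efna5.L* went from 18.3, 18.3 and 18.9 TPM to 1.31, 1.49 and 1.43 TPM (-2.41, SE 0.29, adjusted p = 0.00017). These end levels lay above those of untreated explants (2.37, SE 0.71, adjusted p = 0.031), although that call passed in 2 of 6 fits with a library left out.

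Among the EphA receptors *epha4* reached the highest level of the family. EphA4 keeps rhombomeres and streams of neural crest cells apart in *Xenopus*. In untreated explants *epha4.L* was at 5.2, 1.22 and 2.84 TPM at stage 9 and at 96.1, 120.8 and 143.9 TPM at stage 10 (log2 fold change 3.54, adjusted p = 0.002). The same step gave 3.15 in neural (adjusted p = 0.0013), 3.67 in ventral mesoderm (adjusted p = 0.037, passing in 1 of 6 fits with a library left out) and 3.35 in endoderm explants (adjusted p = 0.011, and 0.067 with the replicate block). The endoderm call was lost without replicate 2 of stage 9. In untreated explants *epha4.L* was at 30.2, 53.4 and 36.4 TPM at stage 11 and at 3.09, 8.65 and 9.11 TPM at stage 13, falling in each of the steps after stage 10.5 with the replicate block. Without the block none of these steps passed, for this or any other gene tested. In Activin explants it was at 565.4, 498.4 and 534.2 TPM at stage 10.5, at 582.5, 578.1 and 523.8 TPM at stage 11, and at 218.6, 150.4 and 176.6 TPM at stage 13.

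*epha4.L* was higher in Activin than in untreated explants from stage 10.5 (log2 fold change 2.16, SE 0.25, adjusted p = 0.0019), by 3.62 at stage 11 (SE 0.26, adjusted p = 2.6e-05) and by 5.04 at stage 13 (SE 0.42, adjusted p = 6.4e-05). Noggin explants held 32.6, 90.3 and 75.9 TPM at stage 13, all above the untreated libraries (3.31, SE 0.48, adjusted p = 0.0075), and passed at stage 12 too (2.31, SE 0.28, adjusted p = 0.00073). Ventral mesoderm held 20.7, 23.5 and 46.5 TPM at stage 13. This did not overlap with untreated explants but missed the threshold (2.91, SE 0.61, adjusted p = 0.065), and passed without replicate 1 (3.30, SE 0.47, adjusted p = 0.0076). The change from stage 9 to 13 exceeded that of untreated explants by 5.16 with Activin (SE 0.67, adjusted p = 0.00037) and by 3.17 with Noggin (SE 0.52, adjusted p = 0.0091).

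The *epha4.S* entry has TPM only and no test. In Activin explants it was at 74, 54.8 and 67.9 TPM at stage 10.5, when *epha4.L* was near its highest, and at 314.6, 329.9 and 202.7 TPM at stage 11. Untreated explants held 18.4, 29.6 and 23.8 TPM at stage 11 and 1.24, 4.4 and 3.58 TPM at stage 13, below every library of the 3 treated lineages at stage 13.

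**Figure D5:**
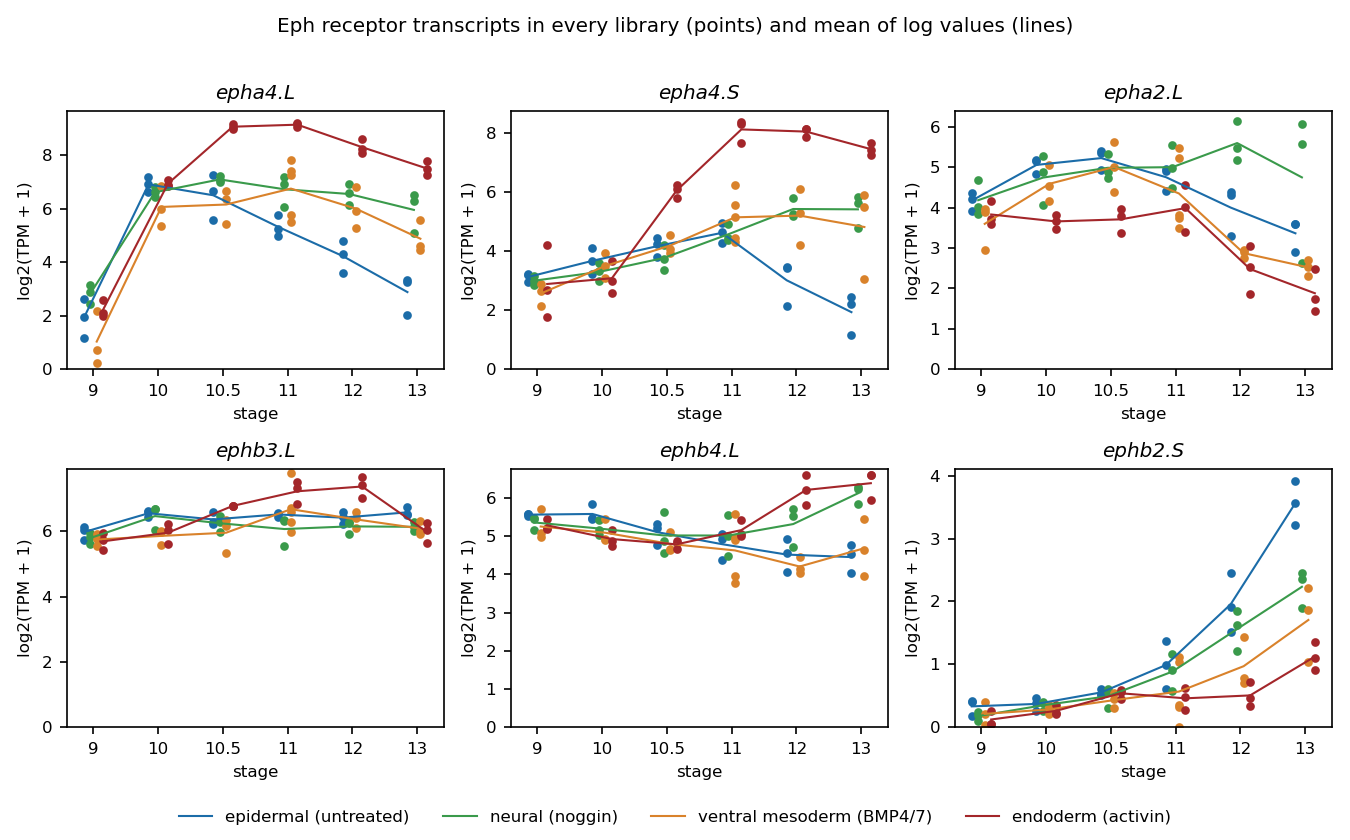
Levels of 6 Eph receptor transcripts as log2(TPM + 1) in every library (points) against stage, with the mean of log values as lines colored by lineage. *epha4.L* is above its stage 9 level in all lineages at stage 10 and highest with Activin from stage 10.5, *epha2.L* at stage 13 is highest in Noggin replicates 2 and 3, and *ephb2.S* at stage 13 is highest in untreated explants.

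*epha2.L* was lower in Activin than in untreated explants. EphA2 is a receptor of epithelial cells in mammals. At stage 10 it was at 35.2, 27.3 and 34.7 TPM in untreated and at 11.8, 10.1 and 13.1 TPM in Activin explants (log2 fold change -1.62, SE 0.20, adjusted p = 0.004). It was also lower at stages 10.5, 12 (a call lost without Activin replicate 3) and 13, at 4.56, 1.69 and 2.33 against 6.47, 11 and 11.1 TPM at stage 13 (-1.82, SE 0.41, adjusted p = 0.0089). Noggin explants held more than untreated ones at stage 12, at 35.2, 69.9 and 43.1 against 8.85, 19.9 and 18.9 TPM (1.55, SE 0.30, adjusted p = 0.0086). At stage 13 they held 65.7 and 46.2 TPM in replicates 2 and 3 and 5.14 TPM in replicate 1. The difference was 1.82 with all libraries (SE 0.67, adjusted p = 0.15) and 2.32 without replicate 1 (SE 0.29, adjusted p = 0.0023).

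*epha7.L*, whose mouse counterpart takes part in neural tube closure, was scarce in Activin explants up to stage 10.5. It was at 0.13, 0.11 and 0.39 TPM at stage 10.5, at 2.17, 2.55 and 2.23 TPM at stage 11 and at 17.4, 10.4 and 17.5 TPM at stage 13. Its excess over untreated explants was 4.42 on the log2 scale at stage 12 (SE 0.46, adjusted p = 0.00014) and 4.18 at stage 13 (SE 0.39, adjusted p = 8.9e-05). In Noggin explants it was above untreated ones at stage 12, 2.48 ± 1.2 against 0.59 ± 0.17 TPM (2.13, SE 0.57, adjusted p = 0.035), passing in 1 of 6 fits with a library left out.

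Among the EphB receptors *ephb3.L* had the highest mean TPM by the TPM entries used, in all groups but endoderm at stage 13. It was between 51.2 and 62.1 TPM on average at stage 9, and rose in all 4 lineages by 1.05 to 1.44 on the log2 scale of counts, with the neural call lost without replicate 2 or 3 of stage 9. In TPM it went from 62.1 ± 8.71 to 94.9 ± 9.22 in untreated and from 51.2 ± 9.54 to 63.05 ± 12.8 in Activin explants. In Activin explants it passed through a maximum, 160.7, 180.9 and 112.5 TPM at stage 11 and 170.7, 200.7 and 129.6 TPM at stage 12, before 74.7, 49.3 and 65.1 TPM at stage 13 (-1.26 for the last step, adjusted p = 0.015, lost without replicate 2 of stage 13). Untreated explants held 73.3, 96 and 85.2 TPM at stage 12, below all Activin libraries (1.18, SE 0.21, adjusted p = 0.0035). *ephb3.S* was above untreated explants with Activin at stage 13, 33.5 ± 6.83 against 12.9 ± 2.42 TPM (1.26, SE 0.27, adjusted p = 0.0065). Ventral mesoderm explants held 30.4 TPM of it on average at that stage, a difference from untreated explants that did not pass.

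*ephb4.L* was higher in Noggin and Activin than in untreated explants at stage 13. EphB4 is the receptor of ephrin-B2 on veins in mouse, and EphB receptors of *Xenopus* take part in the separation of ectoderm and mesoderm. At stage 9 the means were 46.2, 40.2, 38.1 and 38.1 TPM in untreated, neural, ventral mesoderm and endoderm explants. At stage 13 untreated explants held 15.5, 26.4 and 22.1 TPM, Noggin explants 56.3, 77.7 and 73.7 TPM and Activin explants 96.6, 60.2 and 96.8 TPM. Ventral mesoderm, at 14.4, 43 and 24 TPM, overlapped with untreated explants. The difference from untreated explants was 1.51 for Noggin (SE 0.29, adjusted p = 0.022, passing in 1 of 6 fits with a library left out) and 1.80 for Activin (SE 0.25, adjusted p = 0.00077). The changes from stage 9 to 13 exceeded that of untreated explants by 1.67 with Noggin (SE 0.28, adjusted p = 0.01) and by 2.29 with Activin (SE 0.28, adjusted p = 0.00018), and both passed in all 12 fits with a library left out.

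*ephb4.S* rose in all 4 lineages from stage 9 to 13, with the untreated call lost without replicate 3 of stage 9 or replicate 2 of stage 13 and the ventral mesoderm call passing in 2 of 6 fits with a library left out. Its level at stage 13 was 49.3, 40.3 and 29.8 TPM in Noggin and 11, 14.4 and 11 TPM in untreated explants, where the difference of 1.49 (SE 0.50, adjusted p = 0.12) did not pass although the groups do not overlap. This level is that of 1 of 5 TPM entries, so the full level of *ephb4.S* may be higher. In Noggin explants at stage 13 the entry used had a mean of 39.82 TPM, and the others 34.63, 29.58, 28.6 and 1.953 TPM.

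*ephb2.S*, a receptor of the nervous system in mouse, was lower in Activin and Noggin than in untreated explants at stage 13. In untreated explants it was at 0.33, 0.13 and 0.32 TPM at stage 9 and at 14, 10.9 and 8.3 TPM at stage 13 (log2 fold change 6.29, SE 0.50, adjusted p = 3.8e-05). At stage 13 Activin explants held 1.15, 0.88 and 1.55 TPM (-3.42, SE 0.34, adjusted p = 0.00012) and Noggin explants 2.71, 4.45 and 4.13 TPM (-1.79, SE 0.36, adjusted p = 0.027, passing in 1 of 6 fits with a library left out). Ventral mesoderm held 2.63, 3.63 and 1.06 TPM and missed the threshold (-2.17, SE 0.46, adjusted p = 0.055). *ephb2.L* was lower than in untreated explants with Activin as well, at 0.40 ± 0.06 against 3.23 ± 0.61 TPM (-3.03, SE 0.43, adjusted p = 0.00093).

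Treated lineages were also set against each other. Between endoderm and neural explants 57 of 192 member tests passed (9.05% of all gene tests), between endoderm and ventral mesoderm 45 (11.5%) and between ventral mesoderm and neural explants 12 (5.84%). At stage 9 *efna1.S* and *efna4.L* were lower in endoderm than in neural explants (1.63% of all genes), at 7.41 against 16.1 TPM and 4.41 against 16.8 TPM on average, calls that passed in 0 and 1 of 6 fits with a library left out. With the replicate block, which paired libraries here, their adjusted p was 0.058 and 0.023. At stage 10 both *efnb2* copies were higher in endoderm than in neural explants, where *epha2.L* was lower (3.77% of all genes), and higher than in ventral mesoderm explants (0.693%). The call of *epha2.L*, and that of *efnb2.S* against ventral mesoderm, passed in 1 of 6 fits with a library left out, and that of *efnb2.L* against ventral mesoderm was lost without replicate 1 of the latter. Ventral mesoderm and neural explants differed in 8 members at stage 12, with *efna4.L* and *efnb3* higher and *efna3.L*, *epha2.L*, *epha7*, *epha7.L*, *ephb4.L* and *ephb4.S* lower in ventral mesoderm (20.3% of all genes). These 8 are 25% of the members, near the share of all genes. The call of *efna4.L* was lost without any 1 library of either group, and that of *ephb4.S* without any but neural replicate 3. That of *efna3.L* was lost without any 1 ventral mesoderm library or neural replicate 2. At stage 13 *epha7* alone passed (3.57%), a call lost without any 1 ventral mesoderm library or neural replicate 3. Without neural replicate 1, 6 members passed (24.3% of all genes). Over all stages the split of the 12 calls was 5 higher and 7 lower, and 4 higher and 10 lower with library totals.

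Whether a lineage changed differently from untreated explants was tested on the changes from stage 9 to 13 themselves. In endoderm 11 of 32 members differed (9 higher, 2 lower), beside 16.3% of all genes (8.43% higher, 7.85% lower), in neural explants 2, *epha4.L* and *ephb4.L* (1.57%), and in ventral mesoderm 0 by edgeR (0.328%), where 10 members had an unadjusted p under 0.05 and DESeq2 called 1. Without replicate 1 of stage 13 the neural count was 4, beside 11.8% of all genes in place of 1.57%. Added were *efnb2.L* at -2.11 (SE 0.36, adjusted p = 0.005) and *epha2.L* at 2.20 (SE 0.41, adjusted p = 0.0074). Without replicate 1 of its stage 13, *epha4.L* alone passed in ventral mesoderm (4.14, SE 0.57, adjusted p = 0.0033), beside 1.6% of all genes in place of 0.328%. The split of the neural calls against untreated explants at all stages was 5 higher and 4 lower, and 6 higher and 3 lower with library totals. Leaving out neural replicate 1 of stage 13 raised the calls at that stage from 3 to 10 (4 higher, 6 lower), with 23.1% of all genes then called in place of 4.74%. Leaving out replicate 1 of ventral mesoderm raised them from 3 to 7 (5.24% of all genes in place of 1.79%).

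The share of the L copy varied between genes, stages and lineages. For *efnb2* the L copy gave 24.8 ± 8.37% of the TPM in untreated explants at stage 9 and 83.6 ± 2.61% at stage 13, beside 69 ± 1.36% in Activin, 67.9 ± 5.35% in Noggin and 77.8 ± 3.06% in ventral mesoderm explants at stage 13. For *epha4* the L copy gave 66.9 ± 4.55% in Activin explants at stage 11 and 50.9 ± 1.21% at stage 13, beside 69.8 ± 3.06% in untreated explants at stage 13. For *efna1* the row named L in the counts gave 29.9 ± 1.63% in untreated and 52.2 ± 4.99% in Activin explants at stage 13. Taken from counts, which are not per length, the untreated shares at stage 13 were 68.5% for *efnb2.L* and 18.8% for *efna1.L*. Reads that fit both copies can be split between them by the counting, so these shares are uncertain.

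The other members were scarce. In all, 8 were under 1 TPM in every group by the TPM entry used, *epha3* among them, and *efna2.L*, *epha10.S*, *epha5* and *epha6.S* had too few counts to be tested, while *efna3.S* and *epha4.S* have TPM only. Below 10 TPM, *ephb1.S* fell from 4.95 ± 1.82 to 0.81 ± 0.44 TPM in untreated explants (log2 fold change -1.93, SE 0.43, adjusted p = 0.0054), and fell in neural and endoderm explants too. *epha8.L* fell in all 4 lineages, from 3.01 ± 1.45 to 0.24 ± 0.23 TPM in untreated explants (-3.69, SE 0.95, adjusted p = 0.011). The ventral mesoderm call of *epha8.L* passed in 2 of 6 and the neural call in 4 of 6 fits with a library left out. *epha3* rose with Activin by 5.95 on the count scale (SE 0.80, adjusted p = 0.0003). Its 4 TPM entries disagree, only 1 of them reaching 2.74 TPM in Activin explants at stage 13, so its change in TPM is not described. *ephb6.L*, whose protein lacks kinase activity in mammals, and *epha10.L* changed in no lineage between stages 9 and 13 by edgeR (adjusted p of 0.062 or more).

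Genes that carry the signal inside the cell were read from a list of adaptors, kinases, exchange factors, GTPases, partners of ephrin-B tails, proteases and phosphatases, of which 93 symbols were found and 87 tested. From stage 9 to 13, 27 rose and 36 fell in untreated, 19 and 31 in neural, 26 and 35 in ventral mesoderm and 21 and 38 in endoderm explants, or 72.4, 57.5, 70.1 and 67.8% of those tested against the 54.7, 40.1, 54.6 and 61.4% of all genes given above. *fyn.S*, a Src family kinase, fell in all 4, by 5.42 on the log2 scale in untreated explants (34 ± 7.75 to 0.79 ± 0.60 TPM, SE 0.38, adjusted p = 2.3e-05) and by 3.26 to 3.72 in the others. *kalrn.L*, an exchange factor for Rac downstream of EphB receptors in neurons of rodents, rose in all 4 on counts, by 2.89 on the log2 scale in untreated and 4.00 in endoderm explants. Its TPM went from 9.4 ± 1.25 to 12.38 ± 2.08 in untreated and from 9.48 ± 3.31 to 32.7 ± 11.1 in endoderm explants.

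In Activin explants at stage 13, 17 genes of the list were higher and 12 lower than in untreated ones (33.3% of the list and 33.7% of all genes). *nck2.L*, an adaptor that links Eph receptors and ephrin-B to the actin cytoskeleton, was at 136.2 ± 24.2 against 1.46 ± 0.14 TPM (log2 fold change 5.94, SE 0.23, adjusted p = 1.1e-06). *mmp14.L*, a membrane protease that can cleave EphA2 in human cells, was at 26.7 ± 4.58 against 2.61 ± 1.85 TPM (3.25, SE 0.58, adjusted p = 0.0032). *dvl3.L*, one of the Dishevelled proteins that ephrin-B1 can bind in *Xenopus*, was at 7.93 ± 2.90 against 93.5 ± 26.6 TPM (-4.46, SE 0.30, adjusted p = 1.5e-05). *rock1*, a kinase activated by RhoA, was at 3.68 ± 1.97 against 36.4 ± 15.5 TPM (-3.61, SE 0.45, adjusted p = 0.00053). This entry, with no L or S, is counted apart from *rock1.L* and *rock1.S*, whose highest group means were 29.5 and 22.6 TPM.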

How the data were processed

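RNA was sequenced from pooled *Xenopus laevis* animal caps of 4 lineages at 6 stages. Per the study's methods, the authors aligned reads with STAR to the *X. laevis* genome from Xenbase for the deposited raw counts per gene, and used RSEM on the same genome for the deposited TPM values. No replicates were pooled, and no sequence or coordinate was used. Groups follow the sample labels. Members, lists and tests were chosen with earlier results of these data known.

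Levels are TPM. A symbol with several TPM entries is given by the entry with the highest mean. Tests used the deposited counts of the libraries compared, limited to genes that reach 15 counts in some library, with TMM factors and the robust quasi-likelihood F test of edgeR 4.0.16 (R 4.3.3). P-values were adjusted by Benjamini-Hochberg over all genes tested, with a threshold of 0.05, and the SE of a log2 fold change is its size divided by the square root of F. In all, 60 comparisons of 2 groups and 3 of changes were made. The fits were tried on simulated counts in which libraries vary independently, so this check does not cover the pairing of replicates. Members with a mean of at least 10 TPM in a group and a call between stages 9 and 13, against untreated explants at stage 13, or in a comparison of changes are described in full. Depth was 11938338 to 23215739 counts per library, so that low members carry the larger errors, and this covers counting error only.

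Replicate numbers paired libraries over the stages of a lineage. The correlation of deviations of same-numbered libraries was over 0.1 in 58 of 60 pairs of successive stages, and in all pairs of 19 of those 20 comparisons. Between stages 9 and 13 it was over 0.1 in 10 of 12 pairs, and in all pairs of 3 of the 4 lineages. Between lineages it was in 5 of 54 pairs with untreated explants and in 11 of 54 pairs of treated lineages, where endoderm against neural at stage 9 was the 1 comparison with every pair over 0.1. The block is given beside that comparison, beside steps between stages and beside the numbers of calls between stages 9 and 13.

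Alternatives were DESeq2 1.42.0, limma 3.58.1 on log2(TPM + 1) and log2(TPM + 0.1), DESeq2-type size factors, other filters, a log2 fold change of at least 1, 1 fit of all libraries, the replicate block, summed homeologs and each library left out. Library totals in place of TMM factors, and summed TPM entries of a symbol, were chosen after seeing the data. Figures were drawn with matplotlib 3.10.9.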

Additional observations from a re-analysis of the deposited data

Results flagged for a closer look

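In ventral mesoderm at stage 11, the group of 5 libraries, 3 of 20 members tested had a library far from the others. The gap to the nearest library, divided by the range of the group, was 0.713 for *efna1.L*, 0.755 for *efna4* and 0.731 for *ephb3.L*. Chance alone gives such a gap in about 1 of 20 groups. For *efna4* and *ephb3.L* the far library was TPM column 4, at 11.7 and 219 TPM, the column whose best match among the count columns reached r = 0.363. For *efna1.L* it was column 2, at 29.7 TPM.

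Of 57 tests of whether a change from stage 9 to 13 differed from that in untreated explants, in members of at least 10 TPM, 10 passed by edgeR. In Noggin explants the differences on the log2 scale were 3.17 for *epha4.L* and 1.67 for *ephb4.L*. In Activin explants they were 5.16 for *epha4.L*, 4.16 for *efnb2.S*, 2.59 for *efna1.S*, 2.33 for *efna5.L*, 2.29 for *ephb4.L*, 2.05 for *efna1.L*, 1.54 for *efnb2.L* and -2.06 for *efna4*. A difference of changes includes any difference between the lineages at stage 9, given above for *efnb2.S* and *efna1.S*. The calls of *efna4* and *efna5.L* passed in 4 of 12 fits with a library left out, and *efna4* had an adjusted p of 0.07 with the replicate block.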

How the results depend on the processing

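Numbers of members called in the comparison of stages 9 and 13 stayed within 1.5 times under DESeq2, limma, the replicate block, 1 fit of all libraries, other filters and other scalings. With L and S copies summed, so that fewer genes were tested, they were 10 in untreated, 13 in ventral mesoderm and 16 in endoderm explants. Leaving out 1 library gave 18 to 20 calls in untreated, 14 to 22 in neural, 16 to 20 in ventral mesoderm and 20 to 24 in endoderm explants.

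Over successive stages, the replicate block gave 67, 37, 40 and 62 calls in untreated, neural, ventral mesoderm and endoderm explants. DESeq2 gave 23, 12 and 19 calls in the first 3 of these lineages, summed copies 2, 2 and 2, and limma 1, 1 and 0 with either pseudocount. One fit of all libraries gave 14 calls in untreated and 19 in ventral mesoderm, and a mean count of at least 15 gave 2 in ventral mesoderm. With 1 library left out the counts were 1 to 7, 1 to 4, 2 to 6 and 20 to 29. Counts of untreated explants moved by over 1.5 times without any library of stages 9 and 10 or replicate 1 of stage 12. Those of neural explants did so without any library of stage 9 or replicates 1 and 2 of stage 10. Those of ventral mesoderm did so without replicates 1 and 3 of stage 9, any library of stages 10 and 12, or replicates 2 and 3 of stage 13.

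Between neural and untreated explants, calls numbered 26 by DESeq2, 22 in 1 fit of all libraries, 15 without a filter, 15 with the replicate block and 4 by limma on log2(TPM + 1). Between ventral mesoderm and untreated explants they numbered 21 by DESeq2, 10 in 1 fit, 9 with the block, 7 without a filter, and 0 by limma with either pseudocount and with summed copies. Between ventral mesoderm and neural explants they numbered 26 by DESeq2, 26 in 1 fit, 20 without a filter, 5 by limma on log2(TPM + 1) and 6 on log2(TPM + 0.1). Between endoderm and neural explants they numbered 37 with summed copies and 36 by limma on log2(TPM + 1). Between lineages same-numbered libraries did not deviate together in most pairs, so the blocked counts there rest on a shared number alone. Leaving out 1 library gave 7 to 16 calls for neural, 0 to 7 for ventral mesoderm and 54 to 59 for endoderm against untreated explants, 9 to 17 for ventral mesoderm against neural, 47 to 58 for endoderm against neural and 38 to 47 for endoderm against ventral mesoderm. The neural count was 16 without neural replicate 1 of stage 13. The ventral mesoderm count was 7 without its replicate 1 of stage 13 and 0 or 1 without another library of stage 13 of either group.

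For the comparison of changes from stage 9 to 13, limma with either pseudocount gave 1 neural call, DESeq2 1 and 1 fit of all libraries 4 ventral mesoderm calls, and summed copies 6 endoderm calls. Leaving out 1 library gave 2 to 4, 0 to 1 and 9 to 11 calls in neural, ventral mesoderm and endoderm explants. The neural 4 came without neural replicate 1 of stage 13, and the ventral mesoderm 1 without its replicate 1 of stage 13. The shares of all genes were then 11.8 and 1.6%.

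Summing copies turned the direction of *epha7.L* (-0.185) and *ephb4.S* (-0.122) in untreated explants, of *efna4* in endoderm explants (2.601) and of the difference of its changes (0.014), where the sum holds another copy as well.

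The log2 ratio of class sums at stage 13 to stage 9 moved when TMM-normalized counts replaced TPM. It was then 0.044 for EphA in untreated explants, where TPM gave -0.590. It was 1.168, 1.320, 1.342 and 1.677 for EphB in untreated, neural, ventral mesoderm and endoderm explants, and 5.141, 3.641, 4.831 and 6.473 for ephrin-B. For ephrin-A it was 1.611 in untreated, 1.683 in ventral mesoderm and 1.999 in endoderm explants. Without the highest member of a class the ratio was 2.842 for EphA in endoderm, -0.202 for EphB in untreated, 1.118 in neural and 1.191 in endoderm explants. For ephrin-A it was then 0.325 in untreated, 0.291 in ventral mesoderm and 1.659 in endoderm explants, and for ephrin-B 3.655, 2.796, 2.979 and 4.231 in the 4 lineages. With TPM entries of a symbol summed it was 1.162 for EphB in neural explants. Shares of the L copy at stage 13 taken from counts were 18.8, 29.3, 14.7 and 38.2% for *efna1* and 68.5, 49.8, 60.3 and 53.9% for *efnb2*. The causes were not tested.

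Of 93 calls of single members followed in full, 21 no longer passed by limma on log2(TPM + 1), 19 on log2(TPM + 0.1), 8 with library totals, 6 with summed copies and 3 or fewer under each other setting but leaving out a library. The 6 leave out 4 further calls that turned direction with summed copies. Of those 4, only *efna4* between stages 9 and 13 in endoderm explants still passed, in the other direction. Fits with 1 library left out lost a call in 73 cases and kept it in 545.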
